A study of Mus musculus with 8 samples.

Results

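The genes described here code for 10 molecules with which T cells and their partners restrain an immune response. They are the surface enzymes Nt5e and Entpd1, the surface protein Dpp4, the surface ligands Cd274 and Pdcd1lg2, and the secreted or precursor proteins Ebi3, Fgl2, Areg, Il1rn and Penk. They were taken by symbol from a table of 25124 genes, in which all 10 were found. The RNA came from spleen CD4 T cells of mice that report KLF2 in green and FOXP3 in red. CD44hi cells, which include activated and memory T cells, were sorted as FOXP3-negative and then as KLF2+ or KLF2-. All groups shared the dual reporter, the FOXP3-negative gate and 48 h of culture. The groups were stimulated KLF2+, unstimulated KLF2+, stimulated KLF2- and unstimulated KLF2- cells, with 2 libraries each. Stimulated cells received anti-CD3 at 2.5 micrograms/mL and anti-CD28 at 1.25 micrograms/mL, antibodies that trigger the antigen receptor and costimulation. KLF2+ libraries carry the replicate numbers 1 and 2 and KLF2- libraries 3 and 4. Age, sex and the number of mice are not given in the sources used here.

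The transcription factor KLF2 keeps T cells quiescent, lets them leave lymphoid organs, and is shut down by T cell receptor signals. Regulatory T cells and some FOXP3-negative T cells restrain other cells through a small set of molecules. ATP outside the cell is degraded by ENTPD1 (CD39) and NT5E (CD73) to adenosine, which dampens T cells through the receptor ADORA2A. EBI3 is a secreted chain that pairs with IL27 p28 to form IL-27 and has been described with IL12A as IL-35. CD274 (PD-L1) and PDCD1LG2 (PD-L2) bind the inhibitory receptor PD-1, IL1RN blocks the IL-1 receptor, FGL2 binds the inhibitory receptor FCGR2B, AREG is a growth factor linked to tissue repair, PENK is the precursor of the enkephalin opioid peptides, and DPP4 (CD26) is a surface peptidase that trims chemokines and binds adenosine deaminase.

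Promoter windows of 9 of the 10 genes were matched by symbol in the RefSeq table for build GRCm38.p6. The 250 bases before the transcription start are shown for the secreted chain with the highest response to stimulus in KLF2+ cells, for the pair of PD-1 ligands that differed in their response, and for the IL-1 antagonist that was nearly absent from KLF2- cells. Capitals mark letters that match CCNCNCCC (KLF family), TGANTCA (AP-1), GGAAAA (NFAT) or TTCNNNGAA (STAT) on either strand.
Ebi3, chr17:55952373-55952622, + strand: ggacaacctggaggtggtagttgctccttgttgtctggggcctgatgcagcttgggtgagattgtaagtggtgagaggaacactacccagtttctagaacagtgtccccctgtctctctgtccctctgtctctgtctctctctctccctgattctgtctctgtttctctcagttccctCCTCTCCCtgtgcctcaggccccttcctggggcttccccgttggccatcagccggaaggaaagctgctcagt
Pdcd1lg2, chr19:29410669-29410918, + strand: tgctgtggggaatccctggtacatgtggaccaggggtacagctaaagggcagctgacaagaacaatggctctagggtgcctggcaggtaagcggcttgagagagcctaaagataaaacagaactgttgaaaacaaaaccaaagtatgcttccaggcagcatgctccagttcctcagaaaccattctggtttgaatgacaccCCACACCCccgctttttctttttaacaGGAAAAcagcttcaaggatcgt
Cd274, chr19:29367188-29367437, + strand: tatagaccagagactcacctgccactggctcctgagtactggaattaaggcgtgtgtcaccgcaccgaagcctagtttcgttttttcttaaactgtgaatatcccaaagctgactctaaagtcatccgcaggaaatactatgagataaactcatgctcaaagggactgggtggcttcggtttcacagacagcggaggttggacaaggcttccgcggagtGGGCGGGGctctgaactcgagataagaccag
Il1rn, chr2:24345121-24345370, + strand: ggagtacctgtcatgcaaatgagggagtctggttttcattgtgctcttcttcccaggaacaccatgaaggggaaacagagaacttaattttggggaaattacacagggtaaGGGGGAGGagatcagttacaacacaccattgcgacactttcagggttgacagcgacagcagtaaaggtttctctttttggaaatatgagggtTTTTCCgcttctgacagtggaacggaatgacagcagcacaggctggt
Each of the 4 windows shown held 1 match to the KLF letters. The match began 72 bases before the start in Ebi3, 49 in Pdcd1lg2, 31 in Cd274 and 139 in Il1rn. The Pdcd1lg2 and Il1rn windows also held 1 match to the NFAT letters, 22 and 47 bases before the start. No match to the AP-1 or STAT letters was in these 4 windows. The windows shown end at the start of the counts table, and RefSeq gives 2 other starts for Il1rn. The window of the start 80 bases away held 4 KLF matches and no other, and that of the start 8511 bases away held 1 KLF and 1 AP-1 match. Among the other genes Fgl2 had 1 match each to the AP-1 and STAT letters, 16 and 36 bases before its start. Across all 32851 promoter windows of this length, 45.9% held the KLF letters, 20.4% the NFAT letters, 6.75% the AP-1 letters and 7.02% the STAT letters. A match describes the letters only and is no evidence of binding.

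Libraries held 33.9 M to 45.6 M aligned tags, but reads over exons ranged widely (M, mega). The 4 KLF2+ libraries held 8.27 M to 36.6 M of them, the stimulated ones most, and the 4 KLF2- libraries 2.99 M to 8.62 M, the stimulated ones least. Reads over 1471 olfactory and vomeronasal receptor genes, which have no known role in T cells, gave a background density that accounted for an estimated 0.402% to 1.25% of exon reads in stimulated KLF2+ cells and 2.62% to 20.2% in the other 6 libraries. The highest share was in stimulated KLF2- replicate 4, the library that stands apart. Klf2 had 93.5 and 139 CPM (reads scaled to a common depth) in stimulated KLF2+ cells, 303 and 379 CPM in unstimulated KLF2+ cells, 46.6 and 75.7 CPM in stimulated KLF2- cells, and 41.0 and 65.0 CPM in unstimulated KLF2- cells, so the unstimulated libraries matched the sort. In deposited TPM, a length-scaled level, Klf2 overlapped between stimulated KLF2+ (33.1 and 48.6 TPM) and KLF2- cells (40.5 and 79.3 TPM). Without stimulus it stayed apart, with 201 and 183 TPM against 30.3 and 46.5 TPM. Foxp3 lay between 5.23 and 21.3 CPM in all 8 libraries. The summed level of 11 T cell marker genes was 8473 and 9269 CPM in stimulated KLF2+ cells, 5828 and 8811 CPM in unstimulated KLF2+ cells, 3171 and 2969 CPM in stimulated KLF2- cells, and 4235 and 4713 CPM in unstimulated KLF2- cells. The gap between stimulated groups depended on the scaling, and in TPM single markers went both ways. In stimulated KLF2+ against KLF2- cells Cd4 was lower (155 and 173 against 246 and 293 TPM). Cd3e overlapped (396 and 404 against 421 and 390 TPM), and Cd2 was higher (521 and 589 against 255 and 194 TPM). Fewer cells of a type and less RNA per cell cannot be told apart in bulk samples. The labels do not say that replicates came from separate mice or cultures, so the p-values cover only the scatter of these libraries and may reflect technical error alone.

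CPM values were scaled by TMM, which assumes that most genes do not change. Because the background differed between groups, fold changes are set beside the value of a background-corrected fit where it gave one that does not rest on counts near 0. In that fit the density was subtracted and scaling rested on genes of at least 50 CPM. Over all genes the median log2 difference of stimulated KLF2+ over KLF2- cells was -0.19 with TMM, -0.42 with the correction and -1.37 when only the scaling factors were taken from genes of 50 CPM or more, so directions in that comparison depend on the scaling for several genes. Genes were called at an adjusted p under 0.05 by the quasi-likelihood test of edgeR, adjusted by the Benjamini-Hochberg method and named edgeR below. Areg fell below the count filter, which left 9 genes among 19146 tested. With 2 libraries a group, CPM ranges of 2 groups often do not overlap. Both KLF2+ libraries lay above both KLF2- libraries for 26.2% of tested genes without stimulus, and below for 32.8%. With stimulus these shares were 43.2% and 47.2%. Both stimulated libraries lay above both unstimulated ones for 35.2% in KLF2+ and 31.2% in KLF2- cells, and below for 40.1% and 30.2%.

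**Figure D1:**
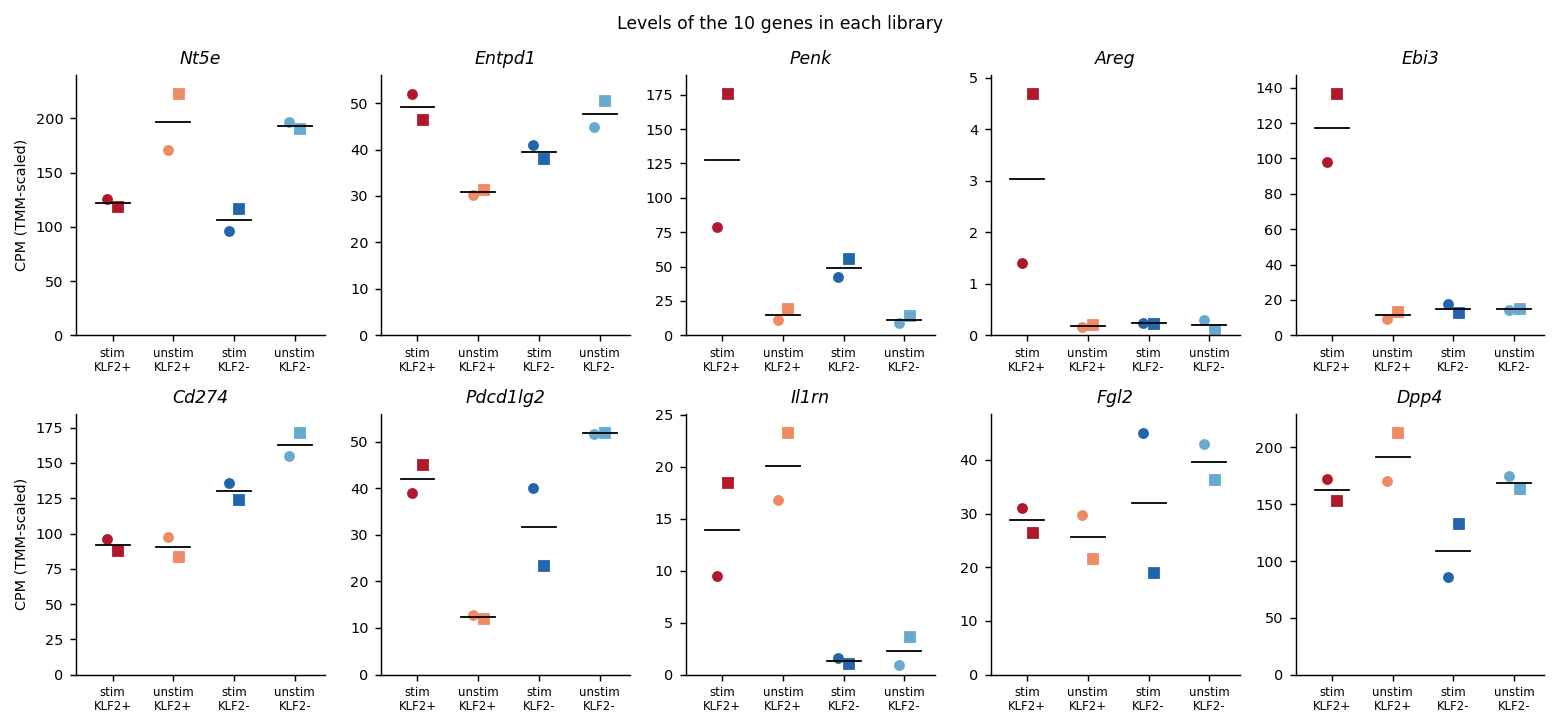
Level of each of the 10 genes in every library, in TMM-scaled CPM on a linear axis that starts at 0. Points are libraries (circle, lower replicate number; square, higher) and lines are means of 2; Ebi3 in stimulated KLF2+ cells (97.9 and 137 CPM) stands above the other 6 libraries, which reach 17.4 CPM.

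Per length, the order of the 10 genes differed between groups. In deposited TPM, a length-scaled level, Ebi3 (mean 64.1 TPM) and Penk (62.7 TPM) led in stimulated KLF2+ cells, and their ranges overlapped. Nt5e (21.8 TPM), Dpp4 (19.8 TPM) and Cd274 (16.1 TPM) followed, of which the first and second overlapped. In unstimulated KLF2+ cells Nt5e (55.9 TPM), Dpp4 (37.2 TPM) and Cd274 (26.1 TPM) led without overlap between neighbours. In stimulated KLF2- cells Penk (66.6 TPM), Cd274 (61.8 TPM), Nt5e (52.2 TPM) and Dpp4 (36.9 TPM) led, and each overlapped with the next. In unstimulated KLF2- cells the order was Nt5e (71.4 TPM), Cd274 (59.1 TPM) and Dpp4 (42.5 TPM), with no overlap. Areg was the lowest of the 10 in every library, between 0.109 and 2.46 TPM.

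Stimulation of KLF2+ cells raised 4 of the 9 tested genes and lowered 1. Ebi3, Penk, Pdcd1lg2 and Entpd1 rose and Nt5e fell (edgeR), while Cd274, Il1rn, Fgl2 and Dpp4 did not pass the test. Of all tested genes, 37.1% were called in this comparison, 19.7% higher and 17.4% lower, so the share called among the members, 5 of 9, stands beside a broad change. With the background correction 4 of 9 were called, against 28.7% of all genes (13.5% higher and 15.2% lower), since Entpd1 was lost. Scaling factors from genes of 50 CPM or more alone called 11.2% of all genes higher and 31.9% lower. The median log2 fold change was 0.17 over the 9 genes and -0.25 over all genes.

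In KLF2- cells no gene of the 19146 reached an adjusted p under 0.05 in edgeR for stimulated over unstimulated cells (0%, the same for higher and for lower), and none of the members did. At an unadjusted p under 0.05 there were 2802 genes and 4 members. DESeq2 called 74 genes (0.387%), of which Penk was 1, and limma on TPM called 12 genes (0.0631%) and no member. An edgeR fit with a replicate block called 770 genes (4.02%), with Penk and Nt5e among them, though no label pairs these libraries. Leaving out stimulated KLF2- replicate 3 called 56 genes (0.278%) and leaving out replicate 4 called 107 (0.548%), with no member in either. These libraries differed in Il2ra, an activation marker, which reached 361 CPM in replicate 3 but 31.0 CPM in replicate 4, where unstimulated KLF2- cells had 51.5 and 43.1 CPM.

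The responses of the populations differed for 3 of the 9 genes, Ebi3, Pdcd1lg2 and Entpd1, each with a higher log2 response in KLF2+ than in KLF2- cells (edgeR). Of all genes, 35.8% were called for this difference, 20.3% with a higher and 15.5% with a lower response in KLF2+ cells. With the background correction Ebi3 and Pdcd1lg2 were called, against 11.7% of all genes (3.83% with a higher and 7.87% with a lower response).

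Without stimulus, KLF2+ cells had more Il1rn and less Cd274 and Pdcd1lg2 than KLF2- cells (edgeR). These 3 calls among 9 genes compare with 2.32% of all genes called, 1.07% higher and 1.25% lower. With the background correction 3 of 9 were again called, against 4.02% of all genes (0.988% higher and 3.04% lower), but Entpd1 took the place of Il1rn. None of the 9 genes was called when unstimulated KLF2+ replicate 2 (0.162% of all genes called) or unstimulated KLF2- replicate 3 or 4 (0.341% and 0.311%) was left out. Without unstimulated KLF2+ replicate 1, 3 of 9 were called, against 8.35% of all genes.

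With stimulus, KLF2+ cells had more Ebi3, Il1rn and Penk and less Cd274 than KLF2- cells (edgeR, TMM scaling), 4 of 9 genes in a comparison where 75.2% of all genes were called, 35.5% higher and 39.7% lower. A share of that kind does not set the members apart. With the background correction 5 of 9 were called, against 54.4% of all genes (16.9% higher and 37.6% lower): Ebi3 and Il1rn higher, and Cd274, Nt5e and Entpd1 lower. Scaling factors from genes of 50 CPM or more alone called 8 of 9, 2 higher and 6 lower, against 70.5% of all genes (12.1% higher and 58.4% lower).

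**Figure D2:**
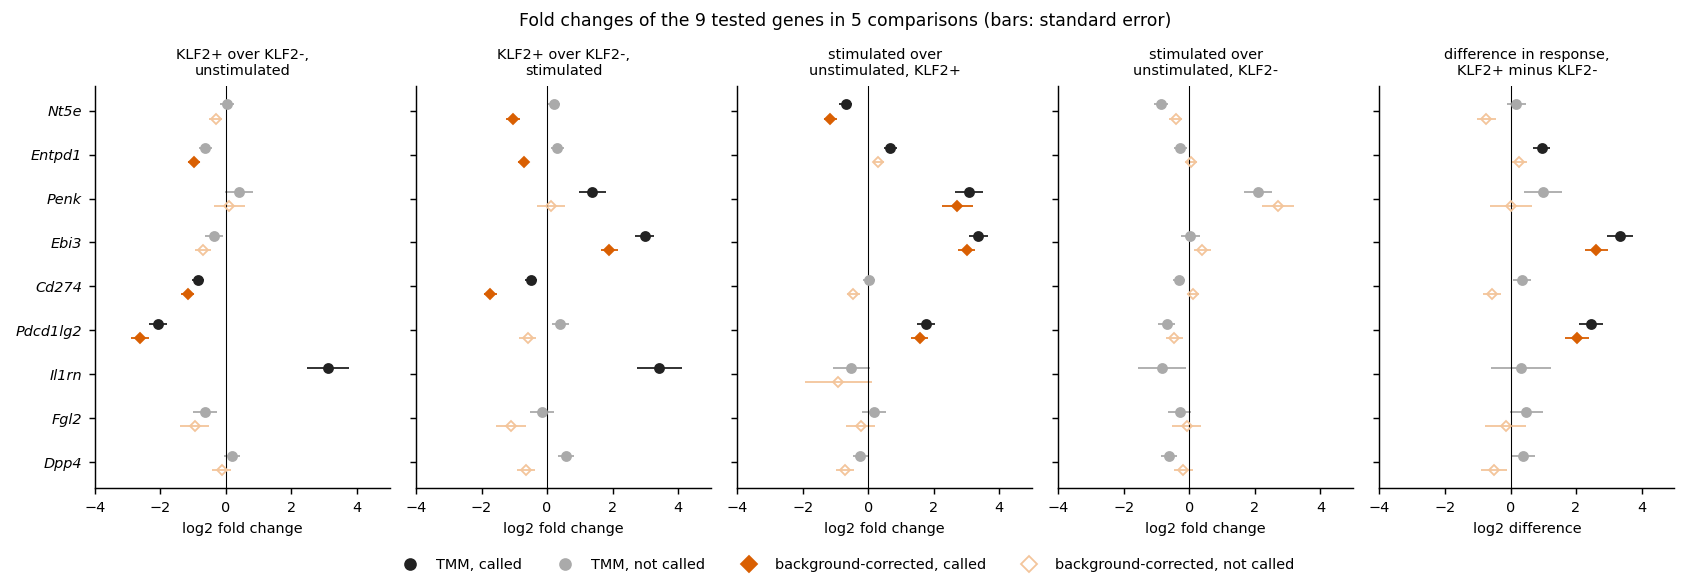
Log2 fold changes with their standard errors for the 9 tested genes in the 5 comparisons, with TMM scaling (circles) and after background correction (diamonds); dark circles and filled diamonds are called. Corrected points of Il1rn are left out where KLF2- libraries enter, since most of those libraries are at the background level; in the stimulated comparison Nt5e, Entpd1, Pdcd1lg2 and Dpp4 lie right of 0 with TMM and left of 0 after correction.

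Nt5e, on chromosome 9 (mm10, 88327609 to 88372089, + strand), codes for CD73, the enzyme that makes adenosine from AMP. It had 126 and 118 CPM in stimulated KLF2+ cells, 170 and 223 CPM in unstimulated KLF2+ cells, 96.0 and 117 CPM in stimulated KLF2- cells, and 197 and 190 CPM in unstimulated KLF2- cells. In TMM-scaled CPM both stimulated groups lay below both unstimulated groups, and the KLF2+ and KLF2- populations overlapped without stimulus. The log2 fold change of stimulated over unstimulated KLF2+ cells was -0.69 ± 0.21 (SE; edgeR adjusted p = 0.0302) and -1.16 ± 0.20 with the correction (edgeR adjusted p = 0.0084). Leaving out unstimulated KLF2+ replicate 2 gave -0.44 and an edgeR adjusted p of 0.0999, and the call was also lost without either stimulated KLF2+ or either unstimulated KLF2- library (edgeR adjusted p between 0.0773 and 0.233). With stimulus, KLF2+ over KLF2- was 0.20 ± 0.21 with TMM (edgeR adjusted p = 0.402) and -1.04 ± 0.20 with the correction (edgeR adjusted p = 0.00528), so its direction turned with the scaling.

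Entpd1, on chromosome 19 (mm10, 40659770 to 40741602, + strand), codes for CD39, which takes ATP and ADP to AMP. It had 52.0 and 46.4 CPM in stimulated KLF2+ cells, 30.2 and 31.4 CPM in unstimulated KLF2+ cells, 41.0 and 38.0 CPM in stimulated KLF2- cells, and 44.8 and 50.4 CPM in unstimulated KLF2- cells. Unstimulated KLF2+ cells were the lowest group and overlapped with none of the others. Its log2 response in KLF2+ cells was 0.67 ± 0.19 (SE; edgeR adjusted p = 0.0245), but 0.31 ± 0.18 with the correction (edgeR adjusted p = 0.209) and -0.01 by limma on TPM. The difference in response, 0.95 ± 0.27 (edgeR adjusted p = 0.0295), was 0.25 ± 0.25 with the correction (edgeR adjusted p = 0.49) and -0.13 by limma on TPM, so neither call held across scalings. With TMM scaling the difference in response was lost without either stimulated KLF2+ library, unstimulated KLF2+ replicate 1, stimulated KLF2- replicate 4 or either unstimulated KLF2- library (edgeR adjusted p between 0.0619 and 0.127). Without stimulus the log2 fold change of KLF2+ over KLF2- was -0.63 ± 0.19 (edgeR adjusted p = 0.138) and -0.97 ± 0.18 with the correction (edgeR adjusted p = 0.0319).

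The ratio of Nt5e to Entpd1 within a library needs no scaling between libraries. In TPM it was 2.85 and 3.00 in stimulated KLF2+ cells, 6.66 and 8.37 in unstimulated KLF2+ cells, 2.76 and 3.63 in stimulated KLF2- cells, and 5.19 and 4.44 in unstimulated KLF2- cells. In both populations each stimulated library lay below each unstimulated library. In stimulated cells the KLF2+ and KLF2- ranges overlapped, and without stimulus both KLF2+ libraries lay above both KLF2- libraries. These ratios still hold background reads. With the background subtracted, stimulated KLF2+ cells had 2.90 and 3.02 and stimulated KLF2- cells 3.03 and 4.34, narrowly without overlap. The other orders stayed. The ratio is given as a description, with no test.

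Of 24 other genes of ATP and adenosine handling, 22 were tested. Stimulation of KLF2+ cells raised 8, lowered 4 and left 10 that did not pass (edgeR), or raised 4 and lowered 3 with the correction. P2rx7, an ATP-gated channel, had 128 and 96.2 CPM in stimulated KLF2+ cells, 38.2 and 30.3 CPM in unstimulated KLF2+ cells, 58.9 and 42.5 CPM in stimulated KLF2- cells, and 96.1 and 88.6 CPM in unstimulated KLF2- cells. Its log2 response in KLF2+ cells was 1.71 ± 0.24 (SE; edgeR adjusted p = 0.00163), with 1.34 after correction (edgeR adjusted p = 0.0102), and the populations differed in response by 2.57 ± 0.34 (edgeR adjusted p = 0.00723), with 1.92 after correction (edgeR adjusted p = 0.0342). Ada, adenosine deaminase, which removes adenosine, had 31.3 and 31.3 CPM in stimulated KLF2+ cells and 4.67 to 5.23 CPM in unstimulated KLF2+ cells, a log2 rise of 2.67 ± 0.43 (edgeR adjusted p = 0.00311) that missed the threshold with the correction (2.55, edgeR adjusted p = 0.0891). In KLF2- cells Ada lay between 2.33 and 5.11 CPM. Adora2a, an adenosine receptor of T cells, lay between 22.7 and 50.1 CPM in the 8 libraries and passed the test in none of the 5 comparisons with TMM scaling. In CPM its KLF2+ and KLF2- ranges overlapped with stimulus. In TPM all KLF2+ libraries (at most 15.8 TPM) lay below all KLF2- libraries (at least 18.8 TPM), so its order between populations depended on the scaling. Ahcy, which splits S-adenosylhomocysteine into adenosine and homocysteine, rose in KLF2+ cells by 1.95 ± 0.27 on the log2 scale (edgeR adjusted p = 0.00163), and by 1.51 with the correction.

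Ebi3, on chromosome 17 (mm10, 55952623 to 55957022, + strand), showed the highest response of the 9 tested genes. It had 97.9 and 137 CPM in stimulated KLF2+ cells, 9.23 and 13.4 CPM in unstimulated KLF2+ cells, 17.4 and 12.3 CPM in stimulated KLF2- cells, and 14.3 and 15 CPM in unstimulated KLF2- cells. Both stimulated KLF2+ libraries lay above the other 6, which lay between 9.23 and 17.4 CPM. The log2 fold change of stimulated over unstimulated KLF2+ cells was 3.36 ± 0.29 (SE; edgeR adjusted p = 0.000241) and 3.01 ± 0.26 with the correction (edgeR adjusted p = 0.00165). Stimulated KLF2+ over KLF2- cells was 2.97 ± 0.29 (edgeR adjusted p = 0.000229) and 1.90 ± 0.25 with the correction (edgeR adjusted p = 0.00179). The difference in response was 3.34 ± 0.40 (edgeR adjusted p = 0.00565) and 2.61 ± 0.35 with the correction (edgeR adjusted p = 0.0286). Without stimulated KLF2- replicate 4 these last differences were 2.76 and 3.11, both still called.

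The partner chains of EBI3 stayed far lower. Il12a, the p35 chain, had 4.46 and 7.07 CPM in stimulated KLF2+ cells, 2.87 and 2.25 CPM in unstimulated KLF2+ cells, 0.989 and 0.653 CPM in stimulated KLF2- cells, and 1.51 and 0.761 CPM in unstimulated KLF2- cells. Il27, the p28 chain, lay between 0.824 and 4.17 CPM in the 8 libraries. Per length, stimulated KLF2+ cells had 53.9 and 74.2 TPM of Ebi3 beside 2.26 and 3.53 TPM of Il12a and 1.39 and 2.40 TPM of Il27. Il12b, the p40 chain of IL-12 and IL-23 that does not pair with EBI3, ran the other way, with 3.70 and 1.72 CPM in stimulated KLF2+ cells, 21.3 and 22.5 CPM in unstimulated KLF2+ cells, 38.5 and 104 CPM in stimulated KLF2- cells, and 42.6 and 79.3 CPM in unstimulated KLF2- cells.

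All 10 other genes of the IL-12 family and its receptors were tested. In KLF2+ cells stimulation raised 2 of them, lowered 2 and left 6 that did not pass (edgeR). The pair that rose were the chains of the IL-12 receptor. Il12rb2 had 208 and 230 CPM in stimulated KLF2+ cells, 7.99 and 8.15 CPM in unstimulated KLF2+ cells, 25.6 and 14.6 CPM in stimulated KLF2- cells, and 21.0 and 24.0 CPM in unstimulated KLF2- cells. Its log2 response in KLF2+ cells was 4.76 ± 0.29 (SE; edgeR adjusted p = 8.93e-05), and that of Il12rb1 was 3.27 ± 0.46 (edgeR adjusted p = 0.00174). With the correction both were still called, at 4.72 and 2.88. Without stimulus Il12rb2 and Il23r, the IL-23 receptor chain, were lower in KLF2+ than in KLF2- cells, by log2 values of -1.47 ± 0.27 (edgeR adjusted p = 0.0208) and -2.41 ± 0.35 (edgeR adjusted p = 0.00882). The correction gave -2.05 (edgeR adjusted p = 0.014) and -2.97 (edgeR adjusted p = 0.0122).

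Il1rn, on chromosome 2 (mm10, 24345371 to 24351491, + strand), codes for the IL-1 receptor antagonist. It had 9.44 and 18.4 CPM in stimulated KLF2+ cells, 16.8 and 23.2 CPM in unstimulated KLF2+ cells, 1.57 and 0.98 CPM in stimulated KLF2- cells, and 0.872 and 3.60 CPM in unstimulated KLF2- cells. All 4 KLF2+ libraries lay above all 4 KLF2- libraries. The KLF2- values came from 4.5 to 35.5 estimated reads, and the background density alone would give 62.9% to 488% of them, so Il1rn was at or near background there. The log2 fold change of KLF2+ over KLF2- was 3.11 ± 0.63 without stimulus (SE; edgeR adjusted p = 0.0361) and 3.43 ± 0.70 with stimulus (edgeR adjusted p = 0.00195). After background correction the unstimulated difference missed the threshold (4.40 ± 1.22, edgeR adjusted p = 0.107) and the stimulated difference passed it (edgeR adjusted p = 0.0165). Both corrected sizes depend on counts near 0 and give no bound on the fold change. The unstimulated value was 2.46 without unstimulated KLF2- replicate 3 and 4.42 without replicate 4.

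Macrophage and monocyte markers followed Il1rn only in part. With stimulus in KLF2+ cells Il1rn did not pass the test (log2 value of -0.52 ± 0.56, edgeR adjusted p = 0.455), while most of these markers fell. Their summed level over 14 genes was 104 and 138 CPM in stimulated KLF2+ cells, 956 and 1752 CPM in unstimulated KLF2+ cells, 109 and 161 CPM in stimulated KLF2- cells, and 89.8 and 90.9 CPM in unstimulated KLF2- cells. Lyz2, lysozyme, had 32.7 and 60.4 CPM in stimulated KLF2+ cells, 705 and 1376 CPM in unstimulated KLF2+ cells, where it made up most of the sum, and 2.31 to 8.50 CPM in the 4 KLF2- libraries. In KLF2- libraries Vcan, versican, was the largest part, with 42.5 to 98.0 CPM, against 4.10 to 45.5 CPM in KLF2+ libraries. Of the 14 genes, 6 were higher and none lower in unstimulated KLF2+ than in KLF2- cells, and 11 fell and none rose with stimulus in KLF2+ cells (edgeR). With stimulus 3 were higher and 6 lower in KLF2+ than in KLF2- cells (edgeR). Of all genes, 1.07% were higher in KLF2+ cells without stimulus and 17.4% fell with stimulus in KLF2+ cells. With stimulus 35.5% were higher and 39.7% lower in KLF2+ cells. C1qb was at 0 in stimulated KLF2- replicate 4 and Fcgr1 in stimulated KLF2+ replicate 1, and no other library had a marker of this list at 0. In stimulated KLF2+ cells the sum was within the range of the KLF2- libraries, but single genes went both ways. Mpeg1 was within its KLF2- range (0.529 and 1.33 CPM, against 0.349 to 2.44 CPM). C1qa was below its KLF2- range (0.151 and 0.0872 CPM, against 4.01 to 8.82 CPM). The 3 higher markers, Lyz2, Hmox1 (39.0 and 45.7 CPM, against 4.78 to 16.5 CPM in KLF2- libraries) and Cd14 (2.34 and 5.45 CPM, against 0.152 to 0.93 CPM), lay above all KLF2- libraries there, as Il1rn did. In TPM this held for Lyz2, Hmox1 and Il1rn, but Cd14 overlapped (0.906 and 2.08 TPM, against 0.119 to 0.998 TPM in KLF2- libraries). The part of macrophage and monocyte markers in the differences of Il1rn was not tested.

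All of 16 other genes of the IL-1 family, its receptors and its processing and signalling were tested. In KLF2+ cells stimulation raised 4, lowered 3 and left 9 that did not pass (edgeR). Il1r2, a decoy receptor for IL-1, had 97.8 and 154 CPM in stimulated KLF2+ cells, 7.71 and 5.70 CPM in unstimulated KLF2+ cells, 18.6 and 56.1 CPM in stimulated KLF2- cells, and 10.1 and 9.03 CPM in unstimulated KLF2- cells. Its log2 response in KLF2+ cells was 4.25 ± 0.49 (SE; edgeR adjusted p = 0.000797), with 4.01 after correction. Il1r1, the signalling receptor for IL-1, had 9.86 and 8.07 CPM in stimulated KLF2+ cells, 16.9 and 12.7 CPM in unstimulated KLF2+ cells, 65.4 and 93.2 CPM in stimulated KLF2- cells, and 73.6 and 57.4 CPM in unstimulated KLF2- cells. It was lower in unstimulated KLF2+ than in KLF2- cells by a log2 value of -2.15 ± 0.27 (edgeR adjusted p = 0.00455), or -2.73 with the correction (edgeR adjusted p = 0.0109), and was the 1 called member of this list there. Il1b, an IL-1 cytokine itself, had 19.4 and 37.5 CPM in stimulated KLF2+ cells, 3.83 and 5.83 CPM in unstimulated KLF2+ cells, and 1.09 to 2.32 CPM in KLF2- cells.

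**Figure D3:**
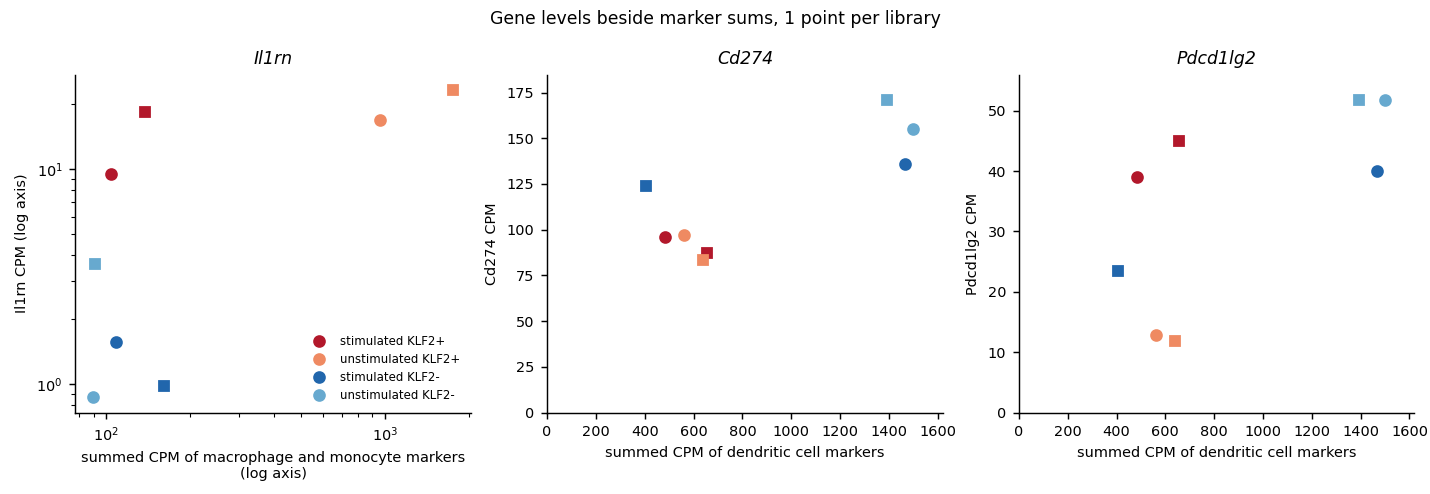
Levels of Il1rn beside the summed level of 14 macrophage and monocyte markers (log axes), and of Cd274 and Pdcd1lg2 beside 12 dendritic cell markers (linear axes), in CPM with 1 point per library (circle, lower replicate number; square, higher). Unstimulated KLF2+ libraries stand alone at 956 and 1752 CPM of the macrophage sum, and stimulated KLF2- replicate 4 has the lowest dendritic sum, 407 CPM.

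Cd274 and Pdcd1lg2 lie next to each other on chromosome 19 (mm10, 29367438 to 29388094 and 29410919 to 29472927, both + strand) and code for the ligands of PD-1. Cd274 had 96.1 and 87.5 CPM in stimulated KLF2+ cells, 97.3 and 83.3 CPM in unstimulated KLF2+ cells, 136 and 124 CPM in stimulated KLF2- cells, and 155 and 171 CPM in unstimulated KLF2- cells. All KLF2+ libraries lay below all KLF2- libraries, and the stimulated and unstimulated KLF2+ libraries overlapped. The log2 fold change of KLF2+ over KLF2- was -0.85 ± 0.19 without stimulus (SE; edgeR adjusted p = 0.0497) and -0.50 ± 0.19 with stimulus (edgeR adjusted p = 0.0337). The correction gave -1.16 ± 0.20 (edgeR adjusted p = 0.0255) and -1.73 ± 0.20 (edgeR adjusted p = 0.00142). With TMM scaling the unstimulated call was lost without either stimulated KLF2+ library, unstimulated KLF2+ replicate 2 or either unstimulated KLF2- library (edgeR adjusted p between 0.132 and 0.486). The stimulated call was lost without either stimulated KLF2+ library, stimulated KLF2- replicate 3 or either unstimulated KLF2- library (edgeR adjusted p between 0.1 and 0.31). The sign stayed negative each time.

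Pdcd1lg2 had 39.0 and 45.0 CPM in stimulated KLF2+ cells, 12.8 and 11.9 CPM in unstimulated KLF2+ cells, 40.1 and 23.4 CPM in stimulated KLF2- cells, and 51.7 and 51.9 CPM in unstimulated KLF2- cells. Unstimulated KLF2+ cells were the lowest group and overlapped with none, and the stimulated KLF2+ and KLF2- groups overlapped. Without stimulus the log2 fold change of KLF2+ over KLF2- was -2.07 ± 0.27 (SE; edgeR adjusted p = 0.00547) and -2.62 ± 0.28 with the correction (edgeR adjusted p = 0.00538). Stimulation raised it in KLF2+ cells by 1.76 ± 0.27 (edgeR adjusted p = 0.00237), and by 1.57 ± 0.27 with the correction (edgeR adjusted p = 0.00791). The difference in response was 2.46 ± 0.37 (edgeR adjusted p = 0.00993) and 2.03 ± 0.37 with the correction (edgeR adjusted p = 0.0342). Without stimulated KLF2- replicate 4, where Pdcd1lg2 was lower than in replicate 3, the difference in response was 2.14 (edgeR adjusted p = 0.00862), and without unstimulated KLF2- replicate 3 or 4 it was 2.49 at edgeR adjusted p values of 0.0617 and 0.065.

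The ratio of Pdcd1lg2 to Cd274 in TPM was 0.432 and 0.548 in stimulated KLF2+ cells, 0.14 and 0.152 in unstimulated KLF2+ cells, 0.314 and 0.201 in stimulated KLF2- cells, and 0.356 and 0.323 in unstimulated KLF2- cells. Stimulated KLF2+ libraries lay above all others and unstimulated KLF2+ libraries below all others. In KLF2- cells the order was opposite, with both stimulated libraries below both unstimulated ones.

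**Figure D4:**
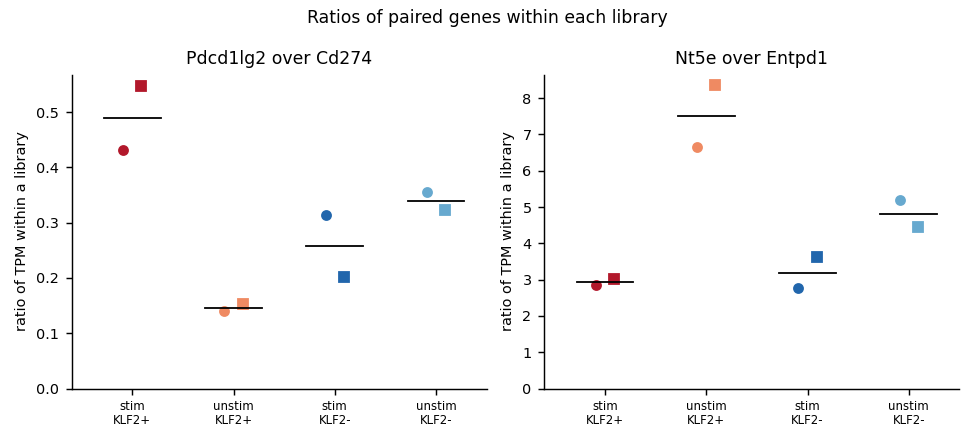
Ratio of deposited TPM of Pdcd1lg2 to Cd274 and of Nt5e to Entpd1 in each library, on linear axes that start at 0, with lines at the means of 2 libraries. The Pdcd1lg2 ratio is 0.14 and 0.152 in unstimulated KLF2+ cells, the lowest of the 4 groups, and the Nt5e ratio is 6.66 and 8.37 there, the highest.

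Markers of dendritic cells, which carry both ligands, also differed between populations. Their sum over 12 genes was 483 and 656 CPM in stimulated KLF2+ cells, 562 and 640 CPM in unstimulated KLF2+ cells, 1465 and 407 CPM in stimulated KLF2- cells, and 1500 and 1393 CPM in unstimulated KLF2- cells. Of the 10 genes tested, 1 was higher and 2 were lower in unstimulated KLF2+ than in KLF2- cells, and 1 was higher and 7 were lower with stimulus (edgeR). Of all genes, 1.07% were higher and 1.25% lower without stimulus, and 35.5% and 39.7% with stimulus. Cst3, Ccl22 and Fscn1 made up most of the sum. Clec9a was at 0 in stimulated KLF2+ replicate 2 and Clec10a in stimulated KLF2- replicate 3, and Itgax, another defining marker, lay between 0.812 and 1.86 CPM in the KLF2- libraries and between 3.53 and 11.7 CPM in the KLF2+ libraries. The defining markers Flt3 and Zbtb46 ran the other way and were the 2 lower genes without stimulus. Flt3 had 4.95 and 4.49 CPM in stimulated KLF2+ cells, 10.9 and 12.1 CPM in unstimulated KLF2+ cells, 35.9 and 50.8 CPM in stimulated KLF2- cells, and 43.9 and 60.1 CPM in unstimulated KLF2- cells. Zbtb46 had 4.72 and 4.86 CPM in stimulated KLF2+ cells, 9.23 and 6.59 CPM in unstimulated KLF2+ cells, 22.3 and 34.0 CPM in stimulated KLF2- cells, and 31.0 and 31.2 CPM in unstimulated KLF2- cells. Their log2 fold changes of unstimulated KLF2+ over KLF2- cells were -2.18 ± 0.27 (SE; edgeR adjusted p = 0.00455) and -1.98 ± 0.32 (edgeR adjusted p = 0.0125), and both were called after correction (edgeR adjusted p = 0.00777 and 0.0214). Stimulated KLF2- replicate 4, with the lowest sum, had 124 CPM of Cd274 and 23.4 CPM of Pdcd1lg2, against 136 and 40.1 CPM in replicate 3. The part of these markers in the differences of Cd274 and Pdcd1lg2 was not tested.

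Of 15 other genes of the B7 and CD28 families and their partners, 14 were tested. Without stimulus 1 was higher and 3 were lower in KLF2+ than in KLF2- cells, and 10 did not pass (edgeR). The ligands Icosl and Cd80 were among the lower ones, at log2 values of -1.79 ± 0.21 (SE; edgeR adjusted p = 0.00383) and -1.72 ± 0.34 (edgeR adjusted p = 0.0302), and at -2.21 and -2.17 with the correction (edgeR adjusted p = 0.00333 and 0.0421). Vsir, the gene for the checkpoint protein VISTA, was higher by 1.52 ± 0.26 (edgeR adjusted p = 0.0158), and by 1.22 with the correction (edgeR adjusted p = 0.0449). Pdcd1, the PD-1 receptor, had 221 and 204 CPM in stimulated KLF2+ cells, 80.0 and 99.0 CPM in unstimulated KLF2+ cells, 101 and 113 CPM in stimulated KLF2- cells, and 153 and 177 CPM in unstimulated KLF2- cells. It rose with stimulus in KLF2+ cells by 1.25 ± 0.20 (edgeR adjusted p = 0.00308), and by 0.78 with the correction (edgeR adjusted p = 0.0204). Ctla4, the inhibitory receptor for CD80 and CD86, had 520 and 644 CPM in stimulated KLF2+ cells, 52.1 and 106 CPM in unstimulated KLF2+ cells, 44.1 and 37.7 CPM in stimulated KLF2- cells, and 51.1 and 70.9 CPM in unstimulated KLF2- cells, a log2 response of 2.88 ± 0.34 in KLF2+ cells (edgeR adjusted p = 0.000892), with 2.46 after correction (edgeR adjusted p = 0.00294).

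Penk, on chromosome 4 (mm10, 4133536 to 4138815, - strand), codes for the enkephalin precursor. It had 79.0 and 176 CPM in stimulated KLF2+ cells, 10.9 and 19.0 CPM in unstimulated KLF2+ cells, 42.5 and 55.2 CPM in stimulated KLF2- cells, and 8.83 and 14 CPM in unstimulated KLF2- cells. In both populations the stimulated libraries lay above the unstimulated ones, and the same replicate, 2 in KLF2+ and 4 in KLF2- cells, was the higher library under both conditions. The log2 fold change of stimulated over unstimulated cells was 3.08 ± 0.43 in KLF2+ cells (SE; edgeR adjusted p = 0.00154) and 2.09 ± 0.43 in KLF2- cells (edgeR adjusted p = 0.268). With the correction these were 2.72 ± 0.47 (edgeR adjusted p = 0.00811) and 2.7 ± 0.48 (edgeR adjusted p = 0.199). The difference in response did not pass in either fit, with 0.99 ± 0.58 (edgeR adjusted p = 0.179) and 0.02 ± 0.64 (edgeR adjusted p = 1.0). Stimulated KLF2+ over KLF2- was 1.38 ± 0.40 with TMM (edgeR adjusted p = 0.0111), 0.12 ± 0.44 with the correction (edgeR adjusted p = 0.82) and -0.15 by limma on TPM. With TMM it was 0.74 without stimulated KLF2+ replicate 2 (edgeR adjusted p = 0.121) and 1.26 without stimulated KLF2- replicate 3 (edgeR adjusted p = 0.0545). Penk levels per length, 39.3 and 86.2 TPM in stimulated KLF2+ cells against 51.8 and 81.3 TPM in stimulated KLF2- cells, overlapped.

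The list of 15 other opioid genes covers peptide precursors, receptors, and enzymes that process or degrade the peptides. Of these 13 were tested, and in KLF2+ cells stimulation raised 4, lowered 7 and left 2 that did not pass (edgeR). With the correction 10 were tested, of which none rose and 2 fell. Pcsk1, a convertase that cuts the precursor, had 41.3 and 18.2 CPM in stimulated KLF2+ cells, 15.4 and 9.28 CPM in unstimulated KLF2+ cells, and 7.51 to 9.80 CPM in KLF2- cells. Cpe, the carboxypeptidase that trims opioid peptides, was lower in unstimulated KLF2+ cells (11.1 and 7.59 CPM) than in unstimulated KLF2- cells (34.4 and 28.4 CPM), a log2 value of -1.75 ± 0.29 (SE; edgeR adjusted p = 0.014), with -2.21 after correction (edgeR adjusted p = 0.0189). Oprd1, the delta opioid receptor, stayed between 0.227 and 9.44 CPM.

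Areg, on chromosome 5 (mm10, 91139599 to 91148432, + strand), codes for amphiregulin. It had 1.40 and 4.69 CPM in stimulated KLF2+ cells, 0.169 and 0.199 CPM in unstimulated KLF2+ cells, 0.247 and 0.218 CPM in stimulated KLF2- cells, and 0.291 and 0.101 CPM in unstimulated KLF2- cells. These levels came from 18.5 and 107.5 estimated reads in stimulated KLF2+ cells and from 1 to 3 reads in each of the other libraries, all of which lay below the background density. Both stimulated KLF2+ libraries were above the other 6. With no count filter, the log2 fold change of stimulated over unstimulated KLF2+ cells was 3.81 ± 0.95 (SE; edgeR adjusted p = 0.00616), in a fit that called 31% of 24382 genes, and stimulated KLF2+ over KLF2- was 3.48 ± 1.02 (edgeR adjusted p = 0.00664), in a contrast with 61.3% called. These sizes depend on counts near 0 and give no bound. Of 14 other genes of the EGF family, its receptors and its shedding proteases and their cofactors, 12 were tested. None was called without stimulus, and none rose and 2 fell with stimulus in KLF2+ cells (edgeR). Egfr, the receptor of AREG, lay between 0.327 and 3.87 CPM, and Adam17, the protease that sheds AREG, between 96.2 and 175 CPM.

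Fgl2, on chromosome 5 (mm10, 21372673 to 21378386, + strand), codes for a secreted fibrinogen-like protein. It had 31.1 and 26.5 CPM in stimulated KLF2+ cells, 29.7 and 21.5 CPM in unstimulated KLF2+ cells, 45.0 and 19.0 CPM in stimulated KLF2- cells, and 42.9 and 36.3 CPM in unstimulated KLF2- cells. The spread between the stimulated KLF2- libraries was wider than any difference between groups, and Fgl2 passed the test in none of the 5 comparisons with TMM scaling or after correction. For stimulated KLF2+ over KLF2- cells it was called in 3 alternative fits. Scaling from genes of at least 50 CPM gave -1.30 there (edgeR adjusted p = 0.0123). Of 6 relatives and receptors, Fcgr2b, the inhibitory Fc receptor that binds FGL2, had 7.21 and 14.2 CPM in stimulated KLF2+ cells, 15.9 and 22.0 CPM in unstimulated KLF2+ cells, 0.412 and 1.42 CPM in stimulated KLF2- cells, and 1.05 and 1.07 CPM in unstimulated KLF2- cells. It was higher in unstimulated KLF2+ than in KLF2- cells by a log2 value of 4.19 ± 0.61 (SE; edgeR adjusted p = 0.00882), the 1 gene of 6 called there. It was called after correction too (edgeR adjusted p = 0.0171), but that size rests on KLF2- counts near 0 and is not given. Like the summed macrophage and monocyte markers, Fcgr2b was highest in unstimulated KLF2+ cells. With stimulus it stayed above the KLF2- libraries, whereas the macrophage and monocyte sums of the populations overlapped. The sum of 10 B cell markers was higher in KLF2+ cells under both conditions. It was 164 and 215 CPM against 80.9 and 144 CPM with stimulus, and 144 and 242 CPM against 93.3 and 111 CPM without. Of these 10 genes, 3 were higher and 1 was lower with stimulus, and 2 were higher and 0 lower without (edgeR). The shares over all genes were 35.5% and 39.7%, and 1.07% and 1.25%. The part of either marker list in the Fcgr2b differences was not tested. Lag3, an inhibitory receptor whose ligand Fgl1 is a relative of Fgl2, rose with stimulus in KLF2+ cells by 4.25 ± 0.55 (edgeR adjusted p = 0.00123; 0.00563 after correction, where the size rests on unstimulated counts near 0), with 14.5 and 39.9 CPM in stimulated KLF2+ cells and 1.69 and 1.23 CPM in unstimulated KLF2+ cells.

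Dpp4, on chromosome 2 (mm10, 62330073 to 62412231, - strand), had 172 and 153 CPM in stimulated KLF2+ cells, 170 and 213 CPM in unstimulated KLF2+ cells, 86.1 and 132 CPM in stimulated KLF2- cells, and 175 and 163 CPM in unstimulated KLF2- cells. With TMM scaling the stimulated KLF2- libraries were the lowest. With all libraries Dpp4 passed the test in none of the 5 comparisons with TMM scaling or after correction. Its log2 response in KLF2+ cells was -0.24 with TMM and -0.70 with the correction (edgeR adjusted p = 0.425 and 0.092). Scaling from genes of at least 50 CPM called this fall (-0.74, edgeR adjusted p = 0.0383). It also called Dpp4 lower in stimulated KLF2+ than KLF2- cells (-0.63, edgeR adjusted p = 0.0448). In TPM, stimulated KLF2+ cells had 21.1 and 18.5, against 39.1 and 35.4 without stimulus. Stimulated KLF2+ over KLF2- was 0.58 ± 0.24 with TMM (SE; edgeR adjusted p = 0.0519), but -0.65 ± 0.28 with the correction (edgeR adjusted p = 0.0836), so its direction turned. With TMM it passed the test without stimulated KLF2- replicate 4 (0.93, edgeR adjusted p = 0.00839) and without either unstimulated KLF2+ library (0.62 each, edgeR adjusted p = 0.0348 and 0.0341). Of 8 relatives all were tested, none was called without stimulus, and 3 rose and none fell with stimulus in KLF2+ cells (edgeR). Prep, a cytosolic prolyl peptidase, rose by 1.73 ± 0.28 (edgeR adjusted p = 0.00319; 1.34 after correction, edgeR adjusted p = 0.0273), with 224 and 207 CPM in stimulated KLF2+ cells and 64.0 and 65.6 CPM in unstimulated KLF2+ cells.

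Over the 8 lists of other pathway genes, 101 of 108 genes were tested. In KLF2+ cells stimulation raised 25, lowered 23 and left 53 that did not pass. Without stimulus 3 were higher and 8 lower in KLF2+ than in KLF2- cells, with stimulus 44 were higher and 35 lower, and the response was higher in KLF2+ cells for 22 and lower for 18 (edgeR). With the correction the counts of higher and lower genes were 14 and 18 for the response of KLF2+ cells, 3 and 10 without stimulus, 20 and 35 with stimulus, and 7 and 11 for the difference. None was called for the response of KLF2- cells. Of all tested genes, 19.7% were higher and 17.4% lower for the response of KLF2+ cells, and 1.07% and 1.25% without stimulus. These shares were 35.5% and 39.7% with stimulus, and 20.3% and 15.5% for the difference (edgeR). After correction they were 13.5% and 15.2%, 0.988% and 3.04%, 16.9% and 37.6%, and 3.83% and 7.87%, in that order. The same shares stand beside the counts of single lists above. A count near such a share does not set a list apart. The pathway genes' median log2 fold change in the response of KLF2+ cells was -0.09, against -0.25 over all genes. Among the calls of the 10 described genes, those of Ebi3 (all 3 comparisons), Il1rn with stimulus, and Pdcd1lg2 and Penk in the response of KLF2+ cells were kept in every alternative fit that was run.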

How the data were processed

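RNA was measured in 8 libraries of sorted mouse CD4 T cells. Per the labels' protocols, RNA was extracted with RNeasy and libraries were made with the SMARTer stranded pico kit, while the labels give the molecule as polyA RNA. Per the file headers, HOMER was used to count exon reads of mm10 RefSeq genes, and the authors deposited estimated counts (all multiples of 0.5) and, in a separate table, TPM values. Per the submitters' processing notes, STAR 2.7.9, HOMER 4.11, SAMtools and DESeq2 were used. Whether strand was used in counting is not given in the sources used here, so reads of overlapping genes cannot be told apart.

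Estimated counts were rounded and fitted in edgeR 4.0.16 (R 4.3.3): filterByExpr, TMM, 1 coefficient per group, 4 residual degrees of freedom, quasi-likelihood F test, Benjamini-Hochberg adjustment over 19146 genes and a threshold of 0.05, in 5 comparisons. Standard errors were derived from each log2 fold change and its F statistic. The model was tested on simulated data. The background correction subtracted reads per kb over receptor genes (1696.8 kb of exons) times exon length. Alternatives were DESeq2 1.42.0, RLE scaling, scaling from genes of at least 50 CPM, no count filter, a filter of 5 CPM, limma 3.58.1 on log2(TPM + 1) or log2(TPM + 0.1), a replicate block, and leaving out each library.

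The 10 genes, the 108 other pathway genes and the markers of T cells, B cells, macrophages and monocytes, and dendritic cells were chosen with earlier results of these data known. Named pathway genes were up to 3 called genes with the smallest p per list and comparison, and genes always read such as Adora2a, Il12a, Pdcd1 and Egfr. Same-numbered libraries of a population deviated together (r = 0.63 in KLF2+ and 0.24 in KLF2- cells over 10395 genes), but with 2 pairs each and no label of a shared source they were not treated as paired.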

Additional observations from a re-analysis of the deposited data

Results flagged for a closer look

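The test of the difference in response to stimulus between KLF2+ and KLF2- cells marked 3 genes. The log2 difference was 3.34 for Ebi3, where the response was 3.36 in KLF2+ cells and 0.03 in KLF2- cells. It was 2.46 for Pdcd1lg2, where the response was 1.76 in KLF2+ cells and -0.70 in KLF2- cells. It was 0.95 for Entpd1, where the response was 0.67 in KLF2+ cells and -0.27 in KLF2- cells, and this one was lost with the background correction (0.25, edgeR adjusted p = 0.49).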

How the results depend on the processing

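Of the 15 calls on single genes, 6 were kept in every alternative and 12 kept their sign in every alternative. The comparison of stimulated KLF2+ with KLF2- cells turned most often. There, scaling from genes of at least 50 CPM gave log2 fold changes of -0.99 for Nt5e, -0.86 for Entpd1, -0.76 for Pdcd1lg2 and -0.63 for Dpp4, the background correction gave -1.04, -0.72, -0.59 and -0.65, and limma on log2(TPM + 1) gave -1.20, -1.03, -0.91 and -0.81 for the same genes and -0.15 for Penk. With a pseudocount of 0.1 these 5 were -1.23, -1.11, -0.98, -0.83 and -0.16. The filter of 5 CPM gave -0.10 for Nt5e, and Fgl2 ranged between -0.64 and 0.66 as single libraries were left out, the highest without stimulated KLF2- replicate 3. In the response of KLF2+ cells, Entpd1 was -0.011 by limma with either pseudocount. Cd274, never called with counts, was -0.51 under that scaling, -0.46 with the correction, -0.10 with the filter of 5 CPM, -0.63 and -0.66 by limma (pseudocount 1 and 0.1) and between -0.043 and 0.11 with single libraries left out. For the difference in response, Nt5e was -0.77 under that scaling, -0.74 with the correction, -0.059 with the filter of 5 CPM, -0.85 and -0.88 by limma and between -0.035 and 0.42 with single libraries left out, while Entpd1 was -0.13 and -0.13 and Penk -0.16 and -0.16 by limma. The limma values use only genes of at least 1 TPM in 2 libraries, and the cause of the turns was not tested.

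The count of members called with stimulus, 4, became 8 when factors came from genes of 50 CPM or more (70.5% of all genes called, 12.1% higher and 58.4% lower), and also 8 by limma with a pseudocount of 1 (71.6%, 9.44% higher and 62.1% lower) or 0.1 (71.8%, 9.32% and 62.4%). Leaving out 1 library gave 2 to 6 members called there (57.5% to 75.7% of all genes), 0 to 3 without stimulus (0.162% to 8.35%), 3 to 6 for the response of KLF2+ cells (10.4% to 44.2%), 0 for that of KLF2- cells (0% to 0.548%) and 1 to 4 for the difference (0.346% to 47.2%). In the same order the other pathway genes called were 66 to 79, 0 to 15, 18 to 53, 0 to 2 and 2 to 49. DESeq2 called 18 pathway genes without stimulus, against 11, and 1 member and 3 pathway genes for the response of KLF2- cells, against 0. The background correction called 18 pathway genes for the difference, against 40. With a replicate block, which the numbering allows only for the responses, 2 members (Penk and Nt5e) and 10 pathway genes were called in KLF2- cells (770 or 4.02% of all genes, against 0), and 4 members and 62 pathway genes for the difference (56.7% of all genes). It called 56.7% of all genes for the response of KLF2+ cells, against 37.1%, and moved no other count of members or pathway genes by over 1.5 times. Exon reads of 2.99 M to 8.62 M limit the KLF2- libraries, where Il1rn and Areg were at or near background.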
